A study of Homo sapiens with 7 samples.

Results

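The intermediate filament genes described here are Vim, Des, Gfap and Nes, which build filaments typical of mesenchymal and neural cells, Krt7, Krt8, Krt14, Krt18 and Krt19, which build the keratin filaments of epithelia, and Lmna, which encodes the A-type lamins of the nucleus. They were taken by symbol from the deposited tables, 10 genes of 21780 distinct symbols, and each had a single row. Libraries from 4 samples given PTH (parathyroid hormone) were compared with libraries from 3 samples given PBS, the vehicle control. All samples are labelled as LX2, an established line of human hepatic stellate cells, whereas the tables carry rat Ensembl identifiers, so rat symbols are used. The sources used here give neither the dose of PTH nor the time of exposure. They also do not say whether each library had its own culture, so the spread behind each p-value may be technical only.

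Intermediate filaments are rope-like polymers that give cells and nuclei mechanical strength. Vimentin and desmin assemble on their own, nestin joins other subunits, and keratins assemble only as pairs of a type I chain (among them KRT14, KRT18 and KRT19) with a type II chain (among them KRT7 and KRT8). Desmin and GFAP are used as markers of rodent hepatic stellate cells, vimentin marks mesenchymal cells in general, KRT8 and KRT18 are the keratins of hepatocytes, KRT7 and KRT19 those of bile duct cells, and KRT14 that of the basal layer of the epidermis. Lamins form the meshwork under the inner nuclear membrane.

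Summed FPKM (fragments per kilobase of transcript, scaled by the authors to the size of the library) ranged from 472621 to 509859 in the PTH libraries and from 519845 to 532909 in the PBS libraries. Mitochondrially encoded mRNAs took 0.867, 3.61, 2.40 and 3.03% of that sum in PTH libraries 1 to 4, against 5.78 to 5.90% in the PBS libraries, so the groups did not overlap. Depth is not given in the tables. The 11 stellate markers summed to 485 to 899 FPKM with PTH and 426 to 446 FPKM with PBS, and of 8 tested limma called 0, with 3 at an unadjusted p under 0.05, 6 above 0 and 2 below. Those 3 were Tagln, Col1a1 and Hand2, with log2 fold changes of 0.50, 0.56 and -0.90 (adjusted p of 0.0650, 0.0905 and 0.106). Among all 10662 tested genes an unadjusted p under 0.05 was reached by 3611. Col1a1 lay between 338 and 635 FPKM in the PTH libraries and between 284 and 298 FPKM in the PBS libraries, but Lrat and Reln were listed at 0 in every library and Acta2 reached at most 2.03 FPKM in a PTH library and 1.80 FPKM in a PBS library. Of 6 mesothelial markers 4 averaged at least 1 FPKM, among them Msln, at 91.4 to 118 FPKM in the PTH libraries and 105 to 118 FPKM in the PBS libraries, and the list summed to 263 to 283 FPKM with PTH and 284 to 308 FPKM with PBS. The hepatocyte markers Alb, Ttr and Hnf4a, the leukocyte marker Ptprc and the basal keratinocyte markers Krt5 and Tp63 were listed at 0 in every library. Lists of markers for hepatocytes, basal keratinocytes, glia, skeletal muscle, leukocytes and endothelium each summed to at most 6.07 FPKM in a PTH library and 4.86 FPKM in a PBS library, while that for bile duct cells, at 279 to 316 FPKM with PTH and 338 to 346 FPKM with PBS, was nearly all Spp1. The part of other cells in the filament values was not tested, and in bulk RNA fewer cells of a type and less RNA per cell cannot be told apart.

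Vim, Krt14 and Lmna were higher in the PTH libraries, by 1.32, 2.27 and 1.56 times in mean FPKM. Krt8, the most abundant member, had higher values in every PTH library than in any PBS library but did not pass the test. Des, Nes and Krt19 did not pass either, and Gfap, Krt7 and Krt18 were too low to be tested. The test was limma on log2(FPKM + 1) over the 10662 genes averaging 1 FPKM or more, two-sided, and the threshold was a Benjamini-Hochberg adjusted p of 0.05. Of the 7 members tested 3 were called higher and 0 lower, where 3.45% of all tested genes were called higher, 7.96% lower and 11.4% either way. An unadjusted p under 0.05 was reached by 3611 of the 10662 genes. In 4 of the 7 (Vim, Krt8, Krt14 and Lmna) all PTH libraries lay above all PBS libraries, which held for 12.7% of all tested genes, while 33.4% had groups that did not overlap in either direction. For each of these 4 an exact permutation test over the libraries gave a two-sided p of 0.0571, the smallest that 4 against 3 libraries allow. The median log2 fold change of the 7 was 0.30, against -0.04 over all tested genes.

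**Figure D1:**
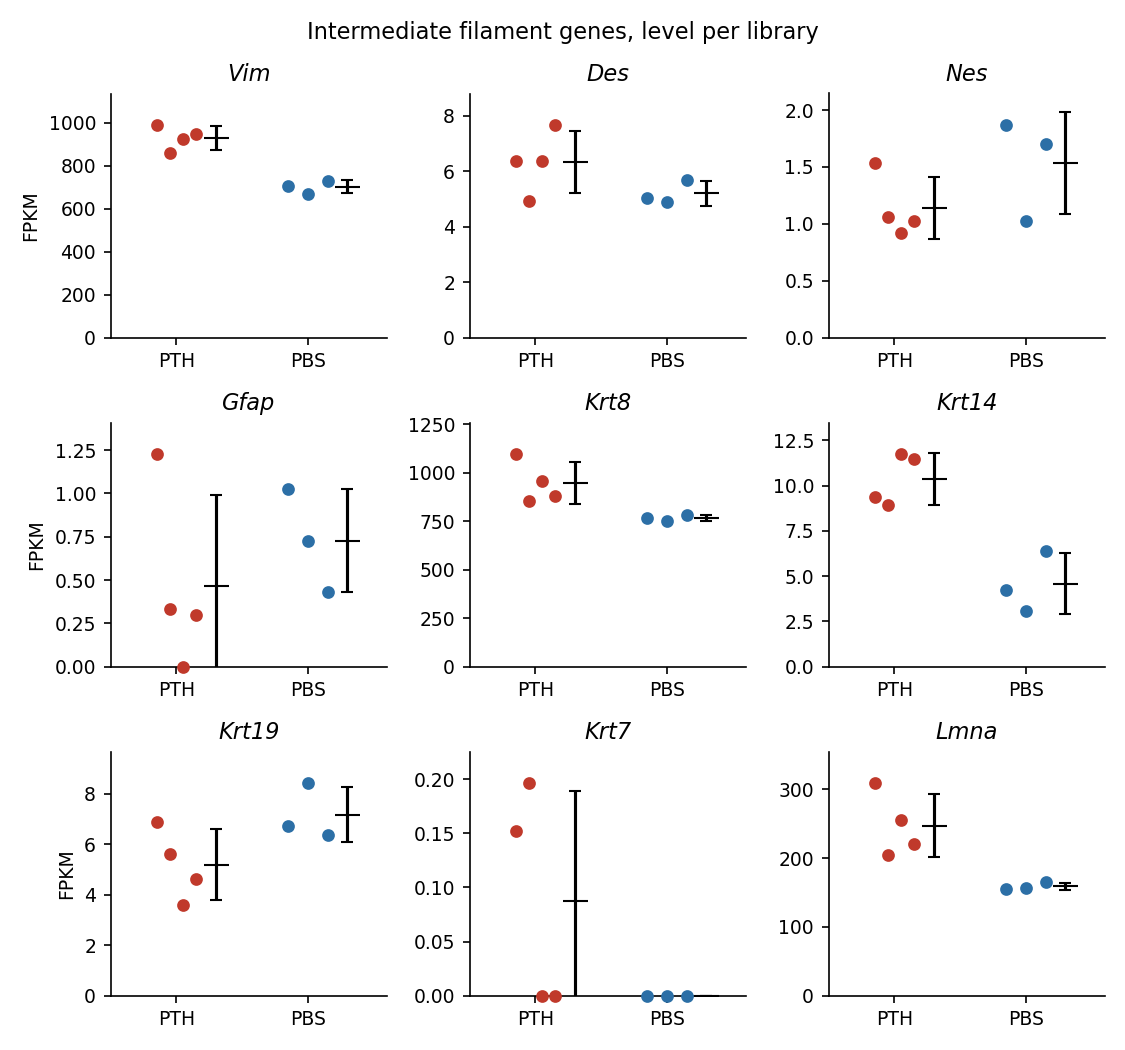
FPKM of the 9 members with a value above 0 in any library. Points are single libraries (PTH in red, PBS in blue, in order of their number from left to right), and the bar beside each group is its mean with the SD over 4 PTH or 3 PBS libraries, drawn no lower than 0. In Vim, Krt8, Krt14 and Lmna all PTH points lie above all PBS points, whereas in Des, Nes, Gfap, Krt19 and Krt7 the groups overlap.

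The promoters of the 3 most abundant members are shown because all PTH libraries lay above all PBS libraries in each of them. The sequences are those of the human counterparts from RefSeq on build GRCh38.p14, each running from 250 bases before to 50 bases after the start, 5′ to 3′ on the gene's strand. Of the 10 members 4 matched an entry (NES is the other), with 3 starts for LMNA, of which the first is printed. Capitals mark matches, on either strand, to the short cAMP response element TGACG, the AP-1 site TGANTCA or the GC box GGGCGG. The windows are chr10:17227991-17228290 on the plus strand for VIM, chr12:52926420-52926719 on the minus strand for KRT8 and chr1:156082323-156082622 on the plus strand for LMNA.
VIM: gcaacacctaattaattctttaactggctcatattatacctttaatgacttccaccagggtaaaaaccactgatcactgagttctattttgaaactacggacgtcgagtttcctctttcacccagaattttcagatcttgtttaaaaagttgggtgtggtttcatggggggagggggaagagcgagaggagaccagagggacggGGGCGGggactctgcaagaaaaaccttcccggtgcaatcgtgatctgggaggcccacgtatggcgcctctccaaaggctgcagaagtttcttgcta
KRT8: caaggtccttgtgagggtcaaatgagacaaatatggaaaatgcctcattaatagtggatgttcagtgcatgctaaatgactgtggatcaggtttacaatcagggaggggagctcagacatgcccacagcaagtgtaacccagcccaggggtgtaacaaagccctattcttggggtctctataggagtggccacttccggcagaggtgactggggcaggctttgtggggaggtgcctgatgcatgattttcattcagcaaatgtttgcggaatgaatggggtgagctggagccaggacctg
LMNA: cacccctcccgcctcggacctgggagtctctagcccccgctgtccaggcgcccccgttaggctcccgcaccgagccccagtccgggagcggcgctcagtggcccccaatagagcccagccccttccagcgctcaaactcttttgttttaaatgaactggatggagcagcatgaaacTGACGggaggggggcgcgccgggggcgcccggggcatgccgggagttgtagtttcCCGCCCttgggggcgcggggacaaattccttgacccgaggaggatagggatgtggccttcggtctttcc
The LMNA window held 1 short cAMP response element and 1 GC box, the VIM window 1 GC box and the KRT8 window neither. None of the 3 windows held an AP-1 site or the full cAMP response element TGACGTCA, which contains the short element on both strands. Over all 35116 promoters of the table the short element was found in 24.6%, the GC box in 45.0%, the AP-1 site in 7.71% and the full element in 1.85%. These matches are a description of the human reference and say nothing of binding in these samples.

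Vim encodes vimentin, the main filament protein of fibroblasts and of stellate cells. It stood at 987, 856, 926 and 945 FPKM in PTH libraries 1 to 4, against 707, 669 and 729 FPKM in PBS libraries 1 to 3. The lowest PTH library was thus above the highest PBS library. The group values were 928 ± 54.5 FPKM with PTH (SD, n = 4) and 702 ± 30.5 FPKM with PBS (SD, n = 3). On the log2 scale Vim rose by 0.40 ± 0.07 (SE), with a 95% interval of 0.24 to 0.56 and a limma adjusted p of 0.0258. In the authors' deposited table Vim has 0.40 on the log2 scale and an FDR of 0.0120. Leaving out any 1 PBS library, or PTH library 3 or 4, ended the call (limma adjusted p of 0.136, 0.107, 0.0732, 0.0889 and 0.0507), with log2 fold changes of 0.37 to 0.44 over all 7 omissions.

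The other mesenchymal members were far less abundant. Des, the muscle and stellate cell filament desmin, stood at 6.37, 4.92, 6.36 and 7.66 FPKM in PTH libraries 1 to 4, against 5.03, 4.88 and 5.71 FPKM in the PBS libraries. PTH library 2 lay within the PBS range and the other 3 above it. Its log2 fold change was 0.23 with a 95% interval of -0.11 to 0.57 and a limma adjusted p of 0.305. Nes, the nestin gene of progenitor cells and of activated rodent stellate cells, stood at 1.54, 1.06, 0.918 and 1.03 FPKM in PTH libraries 1 to 4, against 1.87, 1.02 and 1.71 FPKM in the PBS libraries. The groups overlapped, and its log2 fold change was -0.24 with an interval of -0.70 to 0.22 and a limma adjusted p of 0.435. Gfap, the glial filament gene, stood at 1.23, 0.335, 0 and 0.298 FPKM in PTH libraries 1 to 4, against 1.03, 0.727 and 0.431 FPKM in the PBS libraries. Its highest value and its single 0 were both in PTH libraries, and with a mean of 0.577 FPKM it was not tested. The glial markers Sox10, Aqp4 and Mbp were listed at 0 in every library.

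Krt8 encodes the type II keratin of simple epithelia. It stood at 1095, 853, 959 and 882 FPKM in PTH libraries 1 to 4, against 765, 752 and 783 FPKM in the PBS libraries. All PTH libraries were above all PBS libraries, and PTH library 1 was the highest. The means were 947 ± 108 FPKM with PTH (SD, n = 4) and 767 ± 15.6 FPKM with PBS (SD, n = 3), so that the spread was wider among the PTH libraries. The log2 fold change of 0.30 ± 0.09 (SE) had a 95% interval of 0.09 to 0.51 and a limma adjusted p of 0.0670. In the authors' deposited table Krt8 has 0.30 on the log2 scale and an FDR of 0.0581. Krt8 ranked 77th of all genes by mean FPKM and Vim ranked 81st.

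Krt14 encodes a type I keratin. It stood at 9.36, 8.96, 11.7 and 11.5 FPKM in PTH libraries 1 to 4, against 4.26, 3.099 and 6.39 FPKM in the PBS libraries. Every PTH library was above every PBS library, by 2.27 times in the means of 10.4 ± 1.43 FPKM with PTH (SD, n = 4) and 4.58 ± 1.67 FPKM with PBS (SD, n = 3). On the log2 scale Krt14 rose by 1.06 ± 0.20 (SE), with a 95% interval of 0.60 to 1.53 and a limma adjusted p of 0.0279. The authors' deposited table gives 1.18 on the log2 scale and an FDR of 0.00816. Leaving out PBS library 1 or 2, or PTH library 3 or 4, ended the call (limma adjusted p of 0.136, 0.0982, 0.0892 and 0.0580). Krt5, the usual partner of Krt14 in basal epidermis, was listed at 0 in every library.

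Krt19 encodes the type I keratin of ducts. It stood at 6.88, 5.62, 3.59 and 4.63 FPKM in PTH libraries 1 to 4, against 6.73, 8.41 and 6.37 FPKM in the PBS libraries. PTH library 1 lay within the PBS range and the other 3 below it. Its log2 fold change of -0.42 had a 95% interval of -0.87 to 0.02 and a limma adjusted p of 0.165. The locus field of Krt19 in the deposited table spans 108 kb and is shared with Krt16, so reads of these related keratins may not be cleanly separated. Members deposited as lower with PTH were the only ones checked for a shared locus, so whether this applies to Krt14 was not tested. Krt16 was listed at 0 in all PTH libraries and at 0.477, 0 and 0.452 FPKM in PBS libraries 1 to 3. Krt7 was at 0.152 and 0.196 FPKM in PTH libraries 1 and 2 and listed at 0 in the other 5 libraries. The cholangiocyte markers Sox9, Tff2 and Cldn4 were listed at 0 throughout, and Epcam did not exceed 0.219 FPKM in a PTH library or 0.239 FPKM in a PBS library.

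Krt18, the type I partner of KRT8 in simple epithelia, was listed at 0 in all 7 libraries. A listed 0 need not show that a transcript was absent. With Krt18 at 0, the 25 type I keratin genes summed to 18.1 to 18.8 FPKM in the PTH libraries and 15.0 to 16.6 FPKM in the PBS libraries. The 21 type II keratin genes summed to 870 to 1118 FPKM in the PTH libraries and 776 to 805 FPKM in the PBS libraries, and Krt8 made up 97.9 to 98.2% of that with PTH and 97.0 to 97.3% with PBS. The listed type I sum was therefore 1.65 to 2.13% of the type II sum in the PTH libraries and 1.91 to 2.08% in the PBS libraries. Of the 42 other keratin genes, 29 were listed at 0 in every library and 3 were tested. Limma called 0 of these 3, and 0 had an unadjusted p under 0.05. Krt80, a type II keratin, had the smallest p, at 6.35 to 9.53 FPKM with PTH and 7.87 to 9.37 FPKM with PBS (log2 fold change -0.23, adjusted p of 0.299).

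Lmna encodes lamins A and C. It stood at 309, 204, 256 and 221 FPKM in PTH libraries 1 to 4, against 155, 157 and 165 FPKM in the PBS libraries. Every PTH library was above every PBS library, with PTH library 1 the highest by a wide margin over library 2. The means were 247 ± 46.2 FPKM with PTH (SD, n = 4) and 159 ± 5.38 FPKM with PBS (SD, n = 3). On the log2 scale Lmna rose by 0.62 ± 0.13 (SE), with a 95% interval of 0.32 to 0.92 and a limma adjusted p of 0.0342. The authors' deposited table gives 0.64 on the log2 scale and an FDR of 6.51e-04. Leaving out any 1 PBS library, or PTH library 3 or 4, ended the call (limma adjusted p of 0.152, 0.115, 0.0885, 0.0989 and 0.0553). So did a fit with no variance trend (0.0503), where the alternatives together ran between 5.99e-06 and 0.614.

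**Figure D2:**
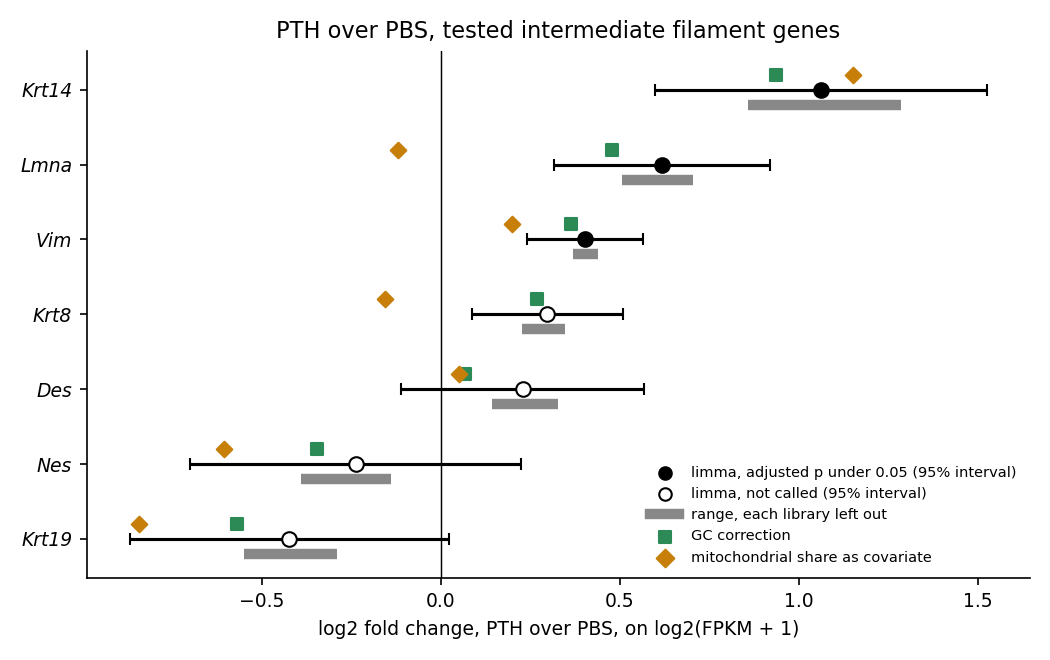
Log2 fold change of PTH over PBS on log2(FPKM + 1) for the 7 tested members. Circles with 95% intervals are the limma values (filled where called), grey bars the range when each library was left out, green squares the values after GC correction and orange diamonds the values with the mitochondrial share as a covariate. Krt14, Lmna and Vim are filled, at 1.06, 0.62 and 0.40, and the diamonds of Lmna and Krt8 lie at -0.12 and -0.15.

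Mesenchymal and epithelial filaments did not separate by direction. Each class had 3 tested members, 1 called higher, 1 above 0 and not called, and 1 below 0. The median log2 fold change was 0.23 for the mesenchymal class (Vim, Des and Nes) and 0.30 for the epithelial class (Krt8, Krt14 and Krt19), both beside -0.04 over all tested genes. With 3 tested members in each class, these medians are simply the values of Des and Krt8, neither of them called. The mesenchymal median was 0.07 after GC correction and 0.05 with the mitochondrial share as covariate, and the epithelial median was 0.27 and -0.15 in those fits. Summed FPKM of the 4 mesenchymal members was 0.896, 0.994, 0.957 and 1.06 times that of the 5 epithelial members in PTH libraries 1 to 4, against 0.921, 0.885 and 0.926 times in the PBS libraries. PTH library 1 lay within the PBS range and the other 3 above it. Since Vim and Krt8 made up 86.2 to 88.4% of the summed FPKM of all 10 members in the PTH libraries and 89.1 to 89.4% in the PBS libraries, this ratio is in essence that of Vim to Krt8. Whether the classes differ was not tested.

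The members also differed in how they varied among the PTH libraries. Krt8 and Lmna were highest in PTH library 1, then 3, 4 and 2, which is the order of rising mitochondrial share (0.867, 2.40, 3.03 and 3.61%). Vim followed that order except that library 4 (945 FPKM) was above library 3 (926 FPKM). Krt14 was highest in libraries 3 and 4 and did not follow it. Across the 7 libraries Krt8 and Lmna had a Pearson correlation of 0.99 on log2(FPKM + 1), and Krt8 and Krt14 one of 0.75, values that include the difference between the groups. When that share entered the fit as a covariate, the log2 fold change was 0.20 for Vim, 1.15 for Krt14, -0.12 for Lmna and -0.15 for Krt8 (limma adjusted p of 0.445, 0.346, 0.614 and 0.439), and Krt8 and Lmna thus changed sign. In that fit 0 genes were called higher and 1 lower over the whole table, with 1600 at an unadjusted p under 0.05. The share does not overlap between the groups, so the covariate and PTH cannot be told apart.

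**Figure D3:**
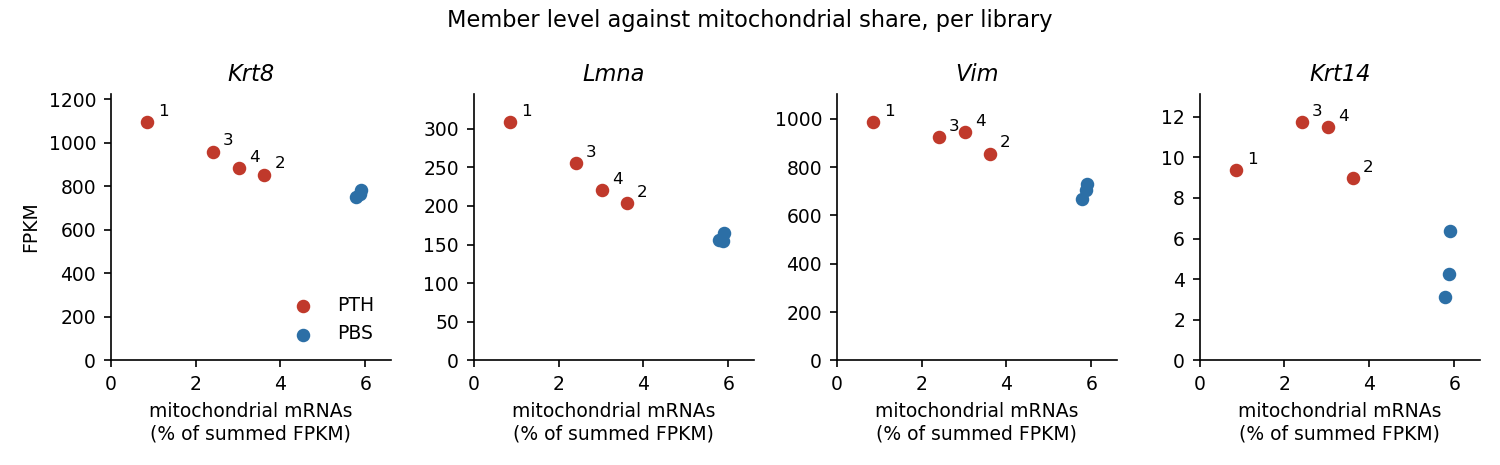
FPKM of Krt8, Lmna, Vim and Krt14 (vertical axes from 0) against the share of summed FPKM taken by mitochondrially encoded mRNAs, for 4 PTH libraries (red, numbered) and 3 PBS libraries (blue). Krt8 and Lmna fall with the share from PTH library 1 to PTH library 2, whereas Krt14 is highest in PTH libraries 3 and 4, and all PBS libraries sit at 5.78 to 5.90%.

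The tested members have GC-rich human counterpart transcripts. GC was 53.4% for KRT8, 54.1% for VIM, 59.3% for NES, 60.5% for KRT14, 61.5% for LMNA, 61.8% for KRT19 and 62.9% for DES. Log2 fold changes in these libraries were higher at higher GC content, although those of Nes and Krt19 were below 0 (-0.24 and -0.42). Over 9433 genes with a GC value the Spearman correlation of log2 fold change with GC was 0.470, across genes, which are not independent replicates. With genes ordered by GC into 5 bins of about equal size, Vim and Krt8 were in bin 4, whose median log2 fold change was 0.06 and of which 4.51% were called higher. Krt14, Lmna, Des, Nes and Krt19 were in bin 5, the highest, with a median of 0.14 and 7.47% called higher. After GC correction, an alternative chosen after the data were seen, the log2 fold changes were 0.36 for Vim, 0.94 for Krt14, 0.48 for Lmna and 0.27 for Krt8, with limma adjusted p of 0.0178, 0.0313, 0.0178 and 0.0450. Des, Nes and Krt19 were at 0.07, -0.35 and -0.57 in that fit (limma adjusted p of 0.799, 0.211 and 0.0637). Krt8 thus passed the test in that fit and also under each of the 4 rescalings, with adjusted p of 0.0350 to 0.0483. The same 9433 genes without the correction gave Krt8 a limma adjusted p of 0.0569. Krt8 was called in 6 of 16 alternatives that did not only omit a library, and in 2 of the 7 omissions. It did not pass with no filter on low values or with no variance trend (limma adjusted p of 0.0977 and 0.0982).

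Among partners of the lamins 1 of 15 tested genes was called higher and 0 lower, with a median log2 fold change of 0.03. Over all tested genes 3.45% were called higher and 7.96% lower, and the median was -0.04. Of the 15 partners 9 were above 0, and 2 with the mitochondrial share as covariate. The call was Lmnb2, which encodes lamin B2. It stood at 85.3, 58.5, 65.9 and 60.4 FPKM in PTH libraries 1 to 4, against 48.3, 45.5 and 48.2 FPKM in the PBS libraries. No PTH library reached down to the PBS range, and Lmnb2 rose by 0.49 ± 0.13 (SE) on the log2 scale, with a limma adjusted p of 0.0452. Lmnb1, for lamin B1, stood at 146 to 178 FPKM with PTH and 137 to 144 FPKM with PBS and did not pass (log2 fold change 0.18, adjusted p of 0.151). It is given as the third lamin gene and was chosen after its values were seen. The ratio of Lmna to Lmnb1 was 1.40 to 1.74 in the PTH libraries and 1.07 to 1.20 in the PBS libraries, whereas that of Lmna to Lmnb2 was 3.48 to 3.88 with PTH and 3.20 to 3.44 with PBS.

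Of 10 tested cytolinker and desmosome genes 1 was called higher and 0 lower, with a median of 0.14. In all, 9 of the 10 were above 0 (7 after GC correction and 5 with the mitochondrial share as covariate). Over all tested genes 3.45% were called higher and 44.6% were above 0. The call was Plec, for plectin, which ties intermediate filaments to junctions and to the nuclear envelope. It stood at 236, 167, 198 and 182 FPKM in PTH libraries 1 to 4, against 138, 134 and 142 FPKM in the PBS libraries. Its PTH libraries were ordered as those of Lmna and Krt8, and Plec rose by 0.49 ± 0.11 (SE), with a limma adjusted p of 0.0372. The desmosomal cadherins Dsg1, Dsg2, Dsg3, Dsc1, Dsc2 and Dsc3 were listed at 0 in every library. Of 20 tested regulators of filaments, such as kinases, chaperones and proteases, limma called 0, with 5 at an unadjusted p under 0.05 and a median of -0.05. Such a p was reached by 3611 of all 10662 tested genes. Of 3 tested further type III and IV filament genes limma called 0, with 1 at an unadjusted p under 0.05, Bfsp1 of the eye lens, at 0.191 to 1.72 FPKM with PTH and 1.67 to 2.34 FPKM with PBS. Leaving out any 1 PBS library, or PTH library 3 or 4, ended the calls of Lmnb2 and Plec, as did the fit with no variance trend and the mitochondrial covariate. Without the filter on low values the call of Lmnb2 was also lost.

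The lists of mesenchymal genes and of epithelial adhesion genes gave no call in the direction of Vim. Of 10 tested mesenchymal genes 0 were called higher and 2 lower, 10 of 10 were below 0, and the median was -0.19. The count below 0 was 8 of 10 under each of the 4 rescalings, 7 after GC correction and 5 with the mitochondrial covariate. Over all tested genes 7.96% were called lower, 44.6% were above 0 and the median was -0.04. The stellate markers, among them collagen genes, leaned the other way, with 6 of 8 tested above 0, 2 below and a median of 0.43. Limma called 0 of these 8. Of the 4 rescalings only that to an equal sum called 1 of them, Tagln, higher. With the mitochondrial covariate 3 of the stellate markers were above 0 and 5 below. S100a4, a calcium-binding protein of motile cells, stood at 301, 323, 310 and 306 FPKM in PTH libraries 1 to 4, against 386, 404 and 372 FPKM in the PBS libraries. Cd44, a hyaluronan receptor, stood at 97.6, 126, 116 and 119 FPKM in PTH libraries 1 to 4, against 146, 157 and 146 FPKM in the PBS libraries. In both genes all PTH libraries were below all PBS libraries, which held for 20.8% of all tested genes. S100a4 and Cd44 fell by 0.32 and 0.39 on the log2 scale with limma adjusted p of 0.0269 and 0.0391. Of 13 epithelial adhesion genes 3 were tested and limma called 0, with 1 at an unadjusted p under 0.05. This was the tight junction gene Tjp1, at 56.1 to 79.0 FPKM with PTH and 90.8 to 93.6 FPKM with PBS (adjusted p of 0.0616). An unadjusted p that low was found in 3611 of all 10662 tested genes. Cdh1, the epithelial cadherin, did not exceed 0.783 FPKM in a PTH library or 0.790 FPKM in a PBS library. The mesothelial marker Wt1, a transcription factor, averaged 24.1 ± 1.26 FPKM with PTH (SD, n = 4) and 30.1 ± 1.59 FPKM with PBS (SD, n = 3) and fell by 0.31 (limma adjusted p of 0.0417). Leaving out any 1 PBS library, or PTH library 3 or 4, ended the calls of S100a4, Cd44 and Wt1, and each of the 4 rescalings and the fit with no variance trend ended those of Cd44 and Wt1. GC correction also ended the call of Cd44, and the mitochondrial covariate ended all 3.

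**Figure D4:**
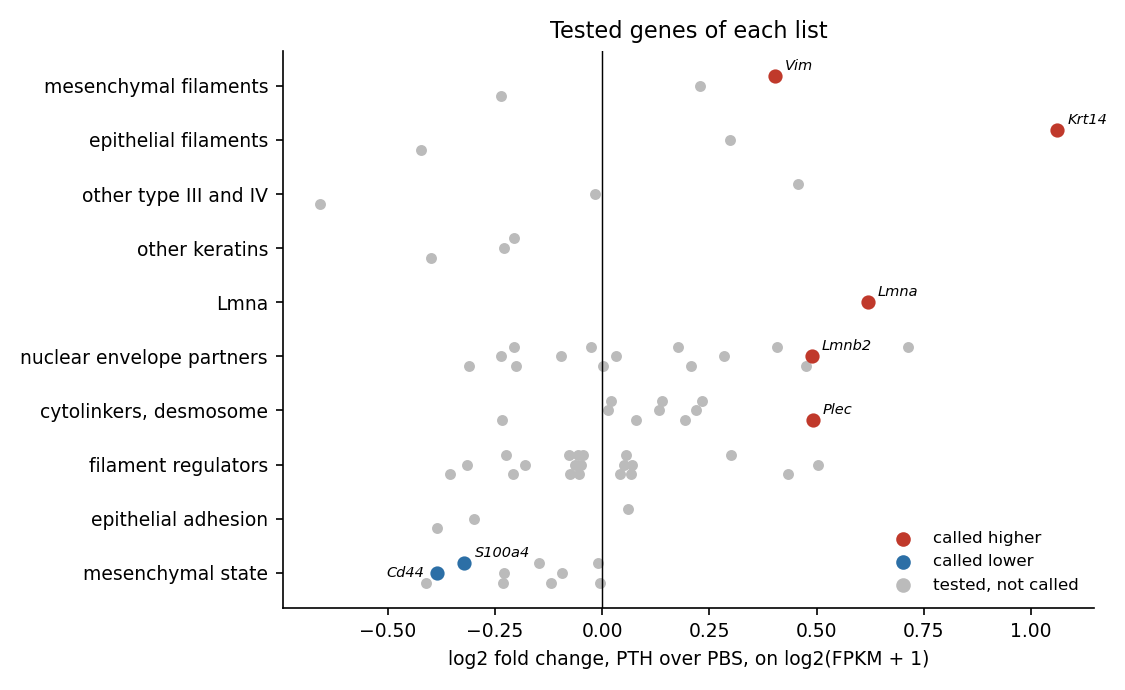
Log2 fold change of PTH over PBS on log2(FPKM + 1) for each tested gene of the filament classes and of the lists around them, one row per list; the vertical offset within a row is for legibility. Red points were called higher, blue points lower and grey points not called. Krt14 lies furthest to the right at 1.06, and the 10 genes of the mesenchymal state row lie below 0. This held for 8 of them under each of the 4 rescalings, 7 after GC correction and 5 with the mitochondrial covariate. The stellate and other cell type markers are not drawn.

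The genes whose levels over the 7 libraries were most like those of Vim were Sptan1, Pmepa1 and Actn1, with Pearson correlations of log2(FPKM + 1) of 0.990 to 0.992. For Lmna they were Myo18a, Gse1 and Plec and for Krt8 they were Ncapd2, Dctn1 and Upf1, with correlations of 0.998 to 0.999. Over 7 libraries in 2 groups such values include the difference between the groups.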

How the data were processed

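RNA sequencing libraries from 4 PTH and 3 PBS samples were used. The authors deposited FPKM values per gene and library, with their own group values, p-values, FDR and log2 fold changes, per the file headers, split into one table for genes higher with PTH and one for genes lower. These fold columns were checked only as a score, since the deposited columns hold infinite values. The submitters' processing notes name Bowtie 0.12.2 and the mouse build mm8, while identifiers are rat. Which program made the FPKM values is not given in the sources used here, nor is the depth.

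Where a symbol repeated (234 symbols) the row with the highest mean was kept. log2(FPKM + 1) was tested for genes averaging 1 FPKM or more with limma 3.58.1 in R 4.3.3 (trend on the mean, no covariates, all 7 libraries). Values after ± are SD for FPKM and SE for log2 fold changes, which understate the change of low genes. The script was tested on simulated data, where it recovered 34% of 1.5-fold, 81% of 2-fold and 93.5% of 4-fold changes. With 200 genes changed in each case, false calls were 6, 6 and 10. The simulated noise was independent between libraries and had the same SD in both groups, whereas Krt8 and Lmna spread more widely with PTH. These shares may therefore not hold for the real libraries. A missing call for a change under 1.5 times does not show that there was none.

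The members and the lists (19 with the other keratins) were chosen with earlier results of these data known. Of 162 list entries 154 matched by symbol, 1 through an older symbol and 7 not at all. All members were named, and from each other list up to 4 called genes, or the one with the smallest p; for likeness the 3 genes with the highest correlation. A gene that this rule names is not reported here. Genes given at 0 or as markers are examples of their lists. GC content came from the longest coding human transcript of the same symbol in GENCODE 29. Alternatives are given in the closing section.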

Additional observations from a re-analysis of the deposited data

Results flagged for a closer look

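Among 32 values compared within the PTH group, Krt80 alone had 1 library set well apart. It stood at 9.53 FPKM in PTH library 1 and at 6.35 to 6.88 FPKM in the other PTH libraries, so the gap made up 0.834 of the group's range. Chance gives such a gap in about 1 of 20 groups.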

How the results depend on the processing

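Over all genes 368 were called higher and 849 lower. The counts were 212 and 553 with no filter on low values, 664 and 573 after quantile normalization, 593 and 554 after median centring, 825 and 431 after rescaling to an equal sum, 590 and 569 after rescaling without mitochondrial genes, 184 and 441 with no variance trend, 3109 and 4311 with sample quality weights, 0 and 1 with the mitochondrial covariate, and 469 and 525 after GC correction. Higher genes were 30.2% of calls, against 53.7, 51.7, 65.7 and 50.9% under the 4 rescalings in that order, 41.9% with quality weights and 47.2% after GC correction. Filament genes called were 3 as reported, 7 with quality weights, whose estimate gave a convergence warning, and 0 with the covariate. The covariate put Krt8 and the epithelial median at -0.15 and Lmna at -0.12, and the cause was not tested. Leaving out each library gave 3 to 828 genes called higher, 25 to 1924 lower and 0 to 4 filament genes, with fewer samples in each fit. The smallest counts came without PBS library 1 and the largest without PTH library 2. The medians of these omissions ran from 0.14 to 0.33 (mesenchymal) and 0.23 to 0.35 (epithelial), while the mesenchymal median was 0.07 after GC correction and 0.05 with the covariate. In all of these fits the mesenchymal median is the value of Des and the epithelial median that of Krt8. With a mean of 5 FPKM required, Nes was not tested and the mesenchymal median was not computed.

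With the replicate number as a block, 4 genes were called higher and 22 lower, 0 of them filament genes. Whether the numbers pair the libraries is not given in the sources used here. Same-numbered libraries had correlations of -0.00714, 0.00116 and -0.0368 between their deviations from the group means. Differently numbered libraries had correlations of -0.0517 to 0.0877, so these values cannot decide whether the libraries were paired. The unknown depth and 3 PBS libraries limit the precision of the low members.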
